A study of Drosophila melanogaster with 2 samples.

Results

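The weaker distal peaks are Hr78 ChIP-seq peaks that lie far from gene starts and fell short of the reproducible list. Each was a row of the pooled peak list that was not a row of the optimal list, with its summit over 5000 bp from every annotated transcript start site and over 1000 bp from every optimal region. Of 30000 pooled peaks, 24277 were not in the optimal list, 5780 of those were far from start sites, and 837 of those were dropped as close to an optimal region. That left 4943 peaks on 5 chromosome arms, with none on chromosome 4. They had 4939 different pairs of start and end, but neighbouring regions can overlap. Joined where neighbouring summits lay within 1000 bp, they formed 3181 groups, of which 1867 held a single summit. Only 0.04 Mb of chromosome 4 met both distance limits. The peaks were chosen by their pooled signal, through the optimal list, and by 2 distances, so those values are given as a description only.

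The data came from 1 group of whole Drosophila melanogaster embryos of mixed sex, aged 8 to 16 h, as 2 biological replicates numbered 1 and 3. All embryos carried a stable transgene for Hr78 with eGFP at the C terminus, and sonicated chromatin was immunoprecipitated with an antibody to GFP. The peaks therefore describe the tagged protein, averaged over every cell type of the embryo, in a single transgenic line. No untagged line, reads or control track were analysed here, read depth is unknown, and the 95% intervals below cover only the counting of peaks.

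Hr78 is a nuclear receptor of the family of the vertebrate testicular orphan receptors, and genetic work has linked it to ecdysteroid signalling and to growth of the tracheal tree. Nuclear receptors contact DNA through zinc fingers that read a hexamer close to AGGTCA, and dimers read a pair of such hexamers. In a direct repeat with a 1-base spacer (DR1), both hexamers point the same way with 1 base between them. Developmental genes of the fly often hold their enhancers in long introns and in the gaps between genes, which is where distal peaks lie.

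The DR1 sites of the weaker distal peaks with the highest signal show what the receptor-type sequence looks like in these regions. The sites lay within 50 bp of the summit. A hexamer was AGGTCA or one of its forms, which are AGTTCA as well as GGGTCA and also GGTTCA, on either strand, and capitals mark the hexamers of the repeat within 10 flanking bases on each side. Sequences are from genome release 6 (dm6), 5′ to 3′ on the strand of the repeat, in order of pooled signal. Sites in 3' UTRs and on 1 chromosome arm are not shown, and those on that arm include the 2 DR1 peaks of highest signal, in Fili (254) and Sobp (221).
RhoGEF64C intron, chr3L:4763244-4763276, plus strand: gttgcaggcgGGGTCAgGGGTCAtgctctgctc
pip intron, chr3L:19323675-19323707, plus strand: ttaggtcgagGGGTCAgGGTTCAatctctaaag
NetB intron, chrX:14728503-14728535, minus strand: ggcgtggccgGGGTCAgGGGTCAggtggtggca
kek5 intron, chrX:19451138-19451170, plus strand: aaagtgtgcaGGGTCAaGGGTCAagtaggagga
CG32264 intron, chr3L:3727999-3728031, minus strand: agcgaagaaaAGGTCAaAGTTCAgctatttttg
mgl coding exon, chrX:9472291-9472323, plus strand: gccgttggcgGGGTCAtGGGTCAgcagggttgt
intergenic, nearest CG7011, chr3L:15184425-15184457, plus strand: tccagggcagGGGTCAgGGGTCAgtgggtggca
scrib intron, chr3R:26598187-26598219, plus strand: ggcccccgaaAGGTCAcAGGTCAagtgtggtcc
AdoR intron, chr3R:30140265-30140297, plus strand: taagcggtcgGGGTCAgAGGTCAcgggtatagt

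The repeat in the scrib intron, with AGGTCA on both sides, was centred 0 bp from its summit, and the mixed GGGTCA and AGGTCA repeat in AdoR, the adenosine receptor gene, lay 1 bp from its summit. The scrib peak, in a gene for an epithelial polarity scaffold, had a pooled signal of 155 and ranked 14049 in replicate 1 and 10368 in replicate 3. The NetB peak, in a gene for a secreted axon guidance cue, had a signal of 186 and ranked 8341 and 11750 in replicates 1 and 3. Its repeat was 34 bp from the summit, as the one near CG7011 was at 30 bp.

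Peaks with AGGTCA, 242 in all, outnumbered DR1 peaks, and the 10 of highest signal outside that arm show the variety of bases around the hexamer. The AGGTCA peak of highest signal, in CG12964 (269), is on that arm and its site is not shown. Capitals mark AGGTCA, with 10 flanking bases on each side.
intergenic, nearest Blimp-1, chr3L:5622106-5622131, minus strand: aaaatcgagaAGGTCAacaaactgag
intergenic, nearest CG14837, chr3L:7551389-7551414, plus strand: acgatgtcaaAGGTCAgcgcatgttt
klar intron, chr3L:465796-465821, minus strand: aacgcggtcgAGGTCAcgcactgaca
GV1 intron, chr3L:1817639-1817664, minus strand: gattttgaaaAGGTCAtgagaagata
RapGAP1 intron, chr2L:7502700-7502725, plus strand: aggaactgtgAGGTCAccgcctctca
shakB intron, chrX:20916712-20916737, minus strand: aatgtatgagAGGTCAtggcattgcc
intergenic, nearest CG7573, chr3L:11306186-11306211, minus strand: tgttactaccAGGTCAgctgtttggc
hth intron, chr3R:10626339-10626364, plus strand: cctgctttccAGGTCAtagttcgccg
Sema1a intron, chr2L:8578554-8578579, plus strand: ccaagggtcgAGGTCAcaattgctat
intergenic, nearest Gr93b, chr3R:21838623-21838648, minus strand: attggattcgAGGTCAatgaattggg

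The Blimp-1 site lay 8.90 kb from the start of that gene, which encodes an ecdysone-responsive zinc finger repressor, in a peak of signal 264 that ranked 7389 in replicate 1 and 5803 in replicate 3. The hth site lay in an intron of the homeodomain cofactor gene homothorax, in a peak of signal 251 that ranked 6011 and 8080 in replicates 1 and 3. The site nearest CG7573 lay in a peak of signal 252 that ranked 4605 and 5796 in the same lists. All 10 of these peaks were found in both replicates, at ranks from 4605 to 9999, and the optimal list held 5723 peaks. The summit window of the shakB peak held a 31-base word found 3 times in the genome, and the others held no repeated word.

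AGGTCA was concentrated at the summits of the weaker distal peaks. It was present in 242 of 4943 windows reaching 50 bp to either side of the summit (4.90%, exact interval 4.31 to 5.53%), against 68 (1.38%) of equal windows 500 bp to higher coordinates. The ratio was 3.56 and the difference 3.52 percentage points (2.84 to 4.20), with p = 1.03e-24 in an exact McNemar test over peaks, 2-sided. The difference was smaller with other flanks, at 3.01 percentage points (2.31 to 3.72) for one 500 bp lower. For a flank 1000 bp higher it was 2.81 (2.09 to 3.53). With 1 replicate left out, the peaks were those of the other list ranked below its first 5723 places, under the same distance limits. The optimal regions in those limits still came from both replicates. Without replicate 3 the difference was 2.13 percentage points (1.45 to 2.82), and without replicate 1 it was 2.99. Among all 30000 pooled peaks, 5.92% of summit windows held AGGTCA. Peaks are not biological replicates and neighbouring windows can share sequence, so these p-values compare positions within 1 peak set.

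The site sat close to the summit. The nearest AGGTCA was a median of 23.5 bp from it, and in 129 of the 242 peaks (53.3%) it was within 25 bp. In bins of 40 bp, AGGTCA reached 22.9 copies per 1000 peaks (18.8 to 27.5) just below the summit and 20.8 (17.0 to 25.3) just above it, and 6.88 (4.76 to 9.61) between 280 and 320 bp above it.

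**Figure D1:**
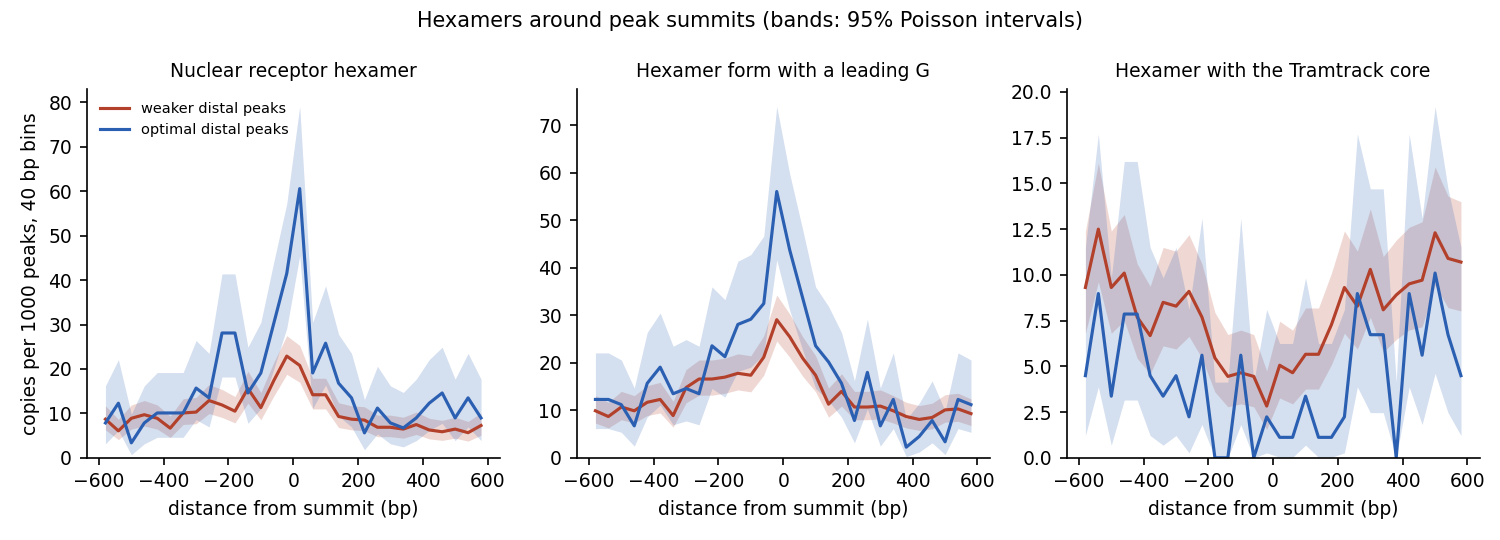
Copies of 3 hexamers on either strand per 1000 peaks, in bins of 40 bp, against the distance from the summit in bp, for the weaker distal peaks (red) and the optimal distal peaks (blue), with 95% Poisson bands. The nuclear receptor hexamer is AGGTCA, the form with a leading G is GGGTCA, and the hexamer with the Tramtrack core is CAGGAC; the first 2 peak at the summits in both sets, and the last dips there, to 2.83 copies per 1000 weaker distal peaks just below the summit.

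All 4 hexamer forms were more frequent at summits than in flanks. GGGTCA was in 6.03% of the summit windows and 2.33% of the flanks (ratio 2.59, exact adjusted p = 8.02e-20). AGTTCA was in 6.96% and 4.49% (ratio 1.55, exact adjusted p = 1.32e-06), and GGTTCA in 3.62% and 2.55% (ratio 1.42, adjusted p = 0.0106). These p-values are from exact McNemar tests with Benjamini-Hochberg adjustment over 32 consensus motifs. GGTTCA lost its call in 5 of 15 alternatives, with a largest exact adjusted p of 0.604. In the list of replicate 1 alone it stood at 0.51 percentage points and an exact adjusted p of 0.343. Any of the 4 forms was present in 968 peaks (19.6%) and 519 flanks (10.5%), a difference of 9.08 percentage points (7.70 to 10.47, exact McNemar p = 2.25e-37). Over all pooled peaks the share with any form was 20.9%.

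A DR1 was present in 25 weaker distal peaks (0.506%, 0.328 to 0.746%) and in 0 of 4943 flanks (exact McNemar p = 5.96e-08, adjusted over 9 spacings 5.36e-07). In all pooled peaks the share was 0.537%. Of direct repeats with spacers of 0 to 8 bases, no other spacing passed at an adjusted p of 0.05, and the next most frequent were DR0 with 8 peaks, DR4 with 7 and DR2 with 6.

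The 26 DR1 sites of those 25 peaks leaned to G. GGGTCA was the upstream hexamer in 16 and the downstream hexamer in 12. The spacer was G in 18 of the 26, and in 12 of 22 sites in the optimal distal peaks. GGGTCA stood on both sides in 11 sites (42.3%, 23.4 to 63.1%), against 5 of 22 sites in the optimal distal peaks (22.7%, 7.82 to 45.4%), and these intervals overlap. By place, 15 of the 25 peaks were intronic and 5 intergenic, against 72.2% and 24.8% of all weaker distal peaks. A peak in both replicates overlapped 24 of the 25, against 78.0% of all weaker distal peaks.

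The weaker distal peaks carried the sites less often than the optimal distal peaks, the 891 peaks of the optimal list that are also over 5000 bp from start sites. AGGTCA was in 4.90% of the weaker and 10.4% of the optimal distal peaks (8.51 to 12.6%), a difference of -5.54 percentage points (-7.64 to -3.45, Fisher's exact p = 1.55e-09, adjusted over 12 comparisons 9.30e-09). Any hexamer form was in 19.6% and 32.1% (difference -12.52, Fisher's exact adjusted p = 1.14e-14). A DR1 was in 0.506% and 2.13% (difference -1.63, Fisher's exact adjusted p = 2.44e-05). Signal separates these 2 sets by construction, with medians of 87.1 and 414.

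The same sites were commoner in the weaker distal peaks than in 4585 weaker peaks at start sites, which were also outside the optimal list and lay within 500 bp of a start site. Any hexamer form was in 19.6% of the distal and 15.2% of the start-site peaks (difference 4.40, 2.89 to 5.92, Fisher's exact adjusted p = 6.44e-08). AGGTCA was in 4.90% and 3.90% (difference 0.99, 0.17 to 1.81, adjusted p = 0.0334 by the same exact test), and DR1 in 0.506% and 0.196% (adjusted p = 0.0334, exact). This comparison, like those by replicate support and by place below, was chosen after other results of these peaks had been seen.

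A further comparison counted only peaks in which the summit and its flank differed, so that each locus was set against itself. AGGTCA was at the summit alone in 238 weaker distal peaks and in the flank alone in 64, a ratio of 3.72. The optimal distal peaks had 92 and 21, a ratio of 4.38, and the 2 ratios did not differ beyond counting error (Fisher's exact p = 0.588, adjusted over 32 motifs 0.896). The weaker start-site peaks had 174 and 88, a ratio of 1.98, which was below the ratio of the weaker distal peaks (Fisher's exact adjusted p = 0.0189).

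AGTTCA differed between the weaker and the optimal distal peaks in that count. It was at the summit alone in 325 weaker distal peaks and in the flank alone in 203, a ratio of 1.60, against 89 and 21, a ratio of 4.24, in the optimal distal peaks (Fisher's exact adjusted p = 0.00230). It was the only motif of the 32 called in that comparison, and its difference had the same sign and passed Fisher's exact test at 0.05, unadjusted, in all 13 alternatives tried. No other flank position was tried in that comparison between sets, for AGTTCA or for AGGTCA.

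The hexamer persisted down the ranking. In 4 equal groups of the weaker distal peaks by falling pooled signal, AGGTCA was in 5.99, 5.02, 3.96 and 4.62% of summits, against 1.29, 0.890, 1.62 and 1.70% of flanks. The exact McNemar p was at most 4.22e-04 over the 4 groups, so the weakest group, with signals from 45.7 to 62.0, also differed from its flanks. DR1 was in 12, 8, 4 and 1 peaks of the same groups.

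**Figure D2:**
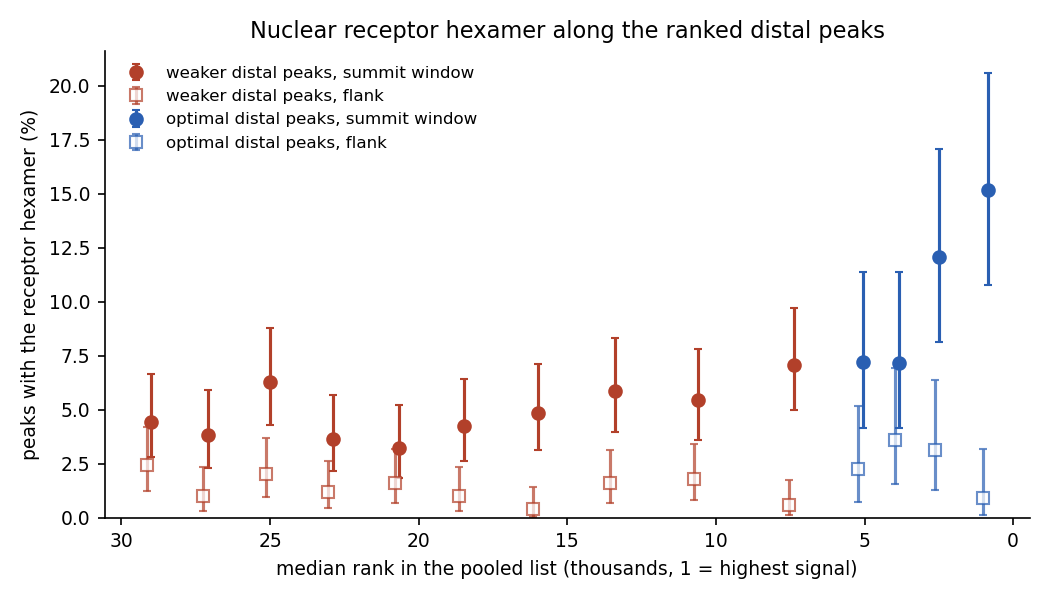
Share of peaks with AGGTCA (percent, 95% exact intervals) in the summit window (filled) and the flank (open), in 10 rank bins of weaker distal peaks (red) and 4 of optimal distal peaks (blue), against the median pooled rank in units of 1000. The share lies between 3.24 and 7.07% in the red bins and exceeds the flank in all 10, and reaches 15.2% in the highest blue bin. Summit and flank intervals overlap in some red bins of low signal, as in the lowest (2.81 to 6.67% and 1.26 to 4.20%).

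Beyond the receptor hexamers, 3 of the 32 consensus motifs were called, which made 7 in all (21.9%). The E-box CATATG was in 3.78% of summit windows and 2.53% of flanks (adjusted p = 0.00375, exact McNemar), and in 3.57% of all pooled windows. TGTTTAC, the core read by Fork head proteins, was in 2.69% and 1.74% (adjusted p = 0.00876, exact), and in 2.84% of all pooled windows. The repeat CACACA was in 10.9% and 8.90% (adjusted p = 0.00733, exact), and in 11.4% of all pooled windows. CATATG was not called in either replicate's list alone (exact adjusted p = 0.0567 for the list of replicate 3 and 0.0889 for that of replicate 1), and TGTTTAC was not called in the list of replicate 1 (0.619). CACACA was called in both lists but not in the 2471 stronger peaks (0.69 percentage points, exact adjusted p = 0.636), over 10000 bp from start sites (0.322) or over 5000 bp from optimal regions (0.247). CATATG also lost its call in these 3 settings, and TGTTTAC in the first 2 of them. Over all 15 alternatives, CATATG lost its call in 7 and TGTTTAC in 4.

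The motifs of 3 promoter-associated factors were not called at the weaker distal summits. CGATA, read by the insulator protein BEAF-32, was in 11.7% of summits and 10.8% of flanks (adjusted p = 0.246, exact), and GAGAG, read by GAGA factor, in 595 summits and 541 flanks (adjusted p = 0.216, exact). TATCGATA, read by DREF, was in 9 and 3 (adjusted p = 0.246, exact). In the weaker start-site peaks CGATA was in 746 summits and 549 flanks of 4585 and was called (adjusted p = 1.36e-07, exact), as were GAGAG, in 742 and 588, and TATCGATA, in 62 and 15. The difference between the sets held for CGATA, at ratios of 1.10 in distal and 1.43 in start-site peaks (Fisher's exact adjusted p = 0.0289), and for CATATG, at 1.51 and 0.849 (adjusted p = 0.0189, exact). It was not called for GAGAG, at 1.11 and 1.31 (adjusted p = 0.291, exact), or TATCGATA, at 3.00 and 4.36 (adjusted p = 0.906, exact).

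Over all possible hexamers, each pooled with its reverse complement, AGGTCA had the lowest p and GGGTCA the next. In all, 54 hexamers (2.60%) were more frequent at summits and 54 (2.60%) less frequent, at an adjusted p of 0.05. In the optimal distal peaks 13 (0.625%) were more and 5 (0.240%) less frequent, and 11 of those 13 were also among the 54. The next places went to hexamers that overlap these by letters, GGTCAA in 6.09% of summit windows and 2.85% of flanks, and then GACCCC in 4.13% and 1.78%. Summit windows had a mean GC content of 41.5%, against 40.7% in flanks, and the part of this in the hexamer counts was not tested.

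Of the hexamers less frequent at the summits, CAGGAC had the lowest p. It holds AGGAC, the core of the site known for the zinc finger repressor Tramtrack 69, whose binding was not tested. CAGGAC was in 44 summit windows (0.890%) and 128 flanks (2.59%), a ratio of 0.344 (exact McNemar adjusted p = 1.87e-08). The overlapping CCAGGA was in 1.48% and 3.22% (adjusted p = 3.19e-06, exact), and AGGACA in 1.23% and 2.53% (adjusted p = 2.39e-04, exact). In all pooled windows CAGGAC was in 0.827%. In the optimal distal peaks AGGACA was in 2 summit windows and 23 flanks (adjusted p = 0.00395, exact), while CAGGAC, in 3 and 15, was not called (adjusted p = 0.300, exact). CAGGAC also lost its call in the 1856 peaks over 10000 bp from start sites (-0.92 percentage points, exact adjusted p = 0.505), as did CCAGGA (-1.83, exact adjusted p = 0.0622). Without replicate 1 the difference for CAGGAC was -1.06 percentage points, against -1.70 with both replicates, and for CCAGGA -1.13, against -1.74, and both stayed called.

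Most weaker distal peaks overlapped a peak in the lists of the single replicates. The pooled list was called on both replicates together, so this overlap is not independent support, and overlap by chance was not measured. A peak of replicate 1 overlapped 4422 of them (89.5%) and a peak of replicate 3 overlapped 4284 (86.7%), by at least 1 bp. Both replicates did so for 3855 (78.0%, 76.8 to 79.1%) and neither for 92 (1.86%). Over all pooled peaks the share found in both was 85.7%, so the weaker distal peaks lay below the background. The optimal distal peaks reached 99.6% and the weaker start-site peaks 84.5%. The replicate lists also fed the optimal list by which the peaks were chosen, so no test is given.

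Support followed the pooled signal. It was 99.3, 94.7, 73.0 and 45.0% in the same 4 groups, from the highest to the lowest signal. Agreement on position was looser, since both replicates had a summit within 100 bp for 2446 peaks (49.5%). Over the 3855 peaks found in both replicates, the median rank was 14461 in replicate 1 and 14760 in replicate 3, and the Spearman correlation of the signals across peaks was 0.63, against 0.83 over 887 optimal distal peaks. None of these weaker distal peaks was within the first 5723 places in both replicate lists, and 156 were in 1 of them. The rule left out the optimal list, which was chosen for agreement between replicates. Pooled signals ran from 45.7 to 271 in the weaker and from 272 to 2570.2 in the optimal distal peaks. The correlations and these ranks depend on that choice and are a description only. A peak of 1 replicate can overlap several weaker distal peaks, as it does for neighbouring pairs in RapGAP1 and Tsp.

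**Figure D3:**
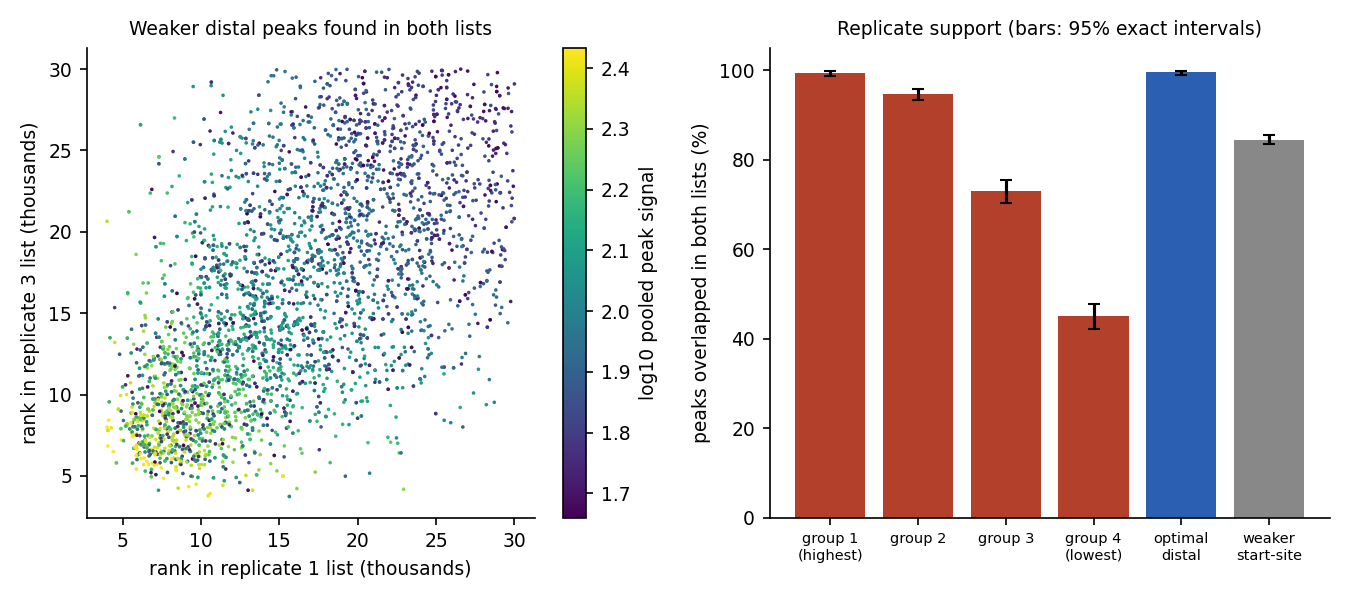
Left, ranks of the 3855 weaker distal peaks found in both replicates, in units of 1000, for replicates 1 and 3, coloured by log10 pooled signal. Right, percent of peaks overlapped in both lists with 95% exact intervals, for the 4 signal groups (99.3, 94.7, 73.0 and 45.0%), the optimal distal peaks (99.6%) and the weaker start-site peaks (84.5%).

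The same sites were compared between peaks found in both replicates and the others. AGGTCA was in 4.77% of the peaks found in both replicates and in 5.33% of the other 1088, a difference of -0.56 percentage points (-2.05 to 0.94, Fisher's exact adjusted p = 0.569). A DR1 was in 24 of 3855 (0.623%) and in 1 of 1088 (0.0919%) (Fisher's exact adjusted p = 0.0411). Any hexamer form was in 20.3% and 17.1% (adjusted p = 0.0334, exact). Replicate support and the number of DR1 peaks both fell with the pooled signal, by which the peaks were chosen. These comparisons therefore cannot separate support from signal.

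The pooled signal of the weaker distal peaks ran from 45.7 to 271, with a median of 87.1, and their pooled ranks from 5742 to 29997. By the authors' q-value, 3226 (65.3%) were under 0.05, below the 76.5% of all pooled peaks. At the upper edge of signal, the peak in Ttd14 had 271.24 and the one in ush had 271.06, while the nearest optimal peaks left out had 271.82 near Lmpt and 272.37 near CG43402. Peaks near CG13193 and Reck were kept at 5003 bp from a start site, and peaks near RhoGAP18B at 5000 bp and Shrm at 4999 bp were not. Peaks near CG43938 and Trim9 were kept at 1004 and 1008 bp from an optimal region, and peaks near Drak at 1000 bp and Eip74EF at 999 bp were not. The lowest signal, 45.70, was near Diedel3.

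The 12 strongest peaks had signals from 267 to 271. The ush peak was in an intron of u-shaped, the gene for a cofactor of GATA factors, at chr2L:510601-510821, and ranked 4907 in replicate 1 and 7211 in replicate 3. The Smr peak, in an intron of the gene for the corepressor SMRTER of nuclear receptors, had a signal of 269.7 at chrX:12724441-12724917 and ranked 4058 and 6836 in replicates 1 and 3. The tok peak, in an intron of the gene for the metalloprotease Tolkin, had a signal of 269 at chr3R:24727124-24727653 and lay 40.5 kb from the nearest optimal region. The other 9 were near Ttd14, CG32264, CG6739, kirre, CG12964, corto, tey, Shrm and mgl, and AGGTCA was present in 1 of the 12, the peak in CG12964.

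The peaks that ranked best in both replicates were a partly different set. They included the RapGAP1 peak shown above, at places 5631 and 5781 in replicates 1 and 3, and a peak 7.87 kb from the start of odd, a segmentation gene for a zinc finger protein, at 5871 and 5423. The peak at chr2L:18392132-18392661, in the coding sequence of Fas3, an adhesion molecule of septate junctions and synapses, ranked 6181 and 6070.

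Introns held 3570 of the weaker distal peaks (72.2%, 71.0 to 73.5%), and intergenic sequence held 1225 (24.8%). Sequence that met both distance rules came to 39.39 Mb, 29.4% of the 6 arms. Per Mb of it, introns held 171 peaks (165 to 176) and intergenic sequence 86.1 (81.3 to 91.0), against 125 (122 to 129) in all. Between the outermost pooled peaks of each arm, introns held 211 (204 to 218) and intergenic sequence 133 (126 to 141), against 163 in all. Coding sequence held 53 peaks, at 18.1 per Mb (13.5 to 23.7), and 3' UTRs held 59, at 53.9 per Mb (41.0 to 69.5). Non-coding exons held 22, at 232 per Mb (145 to 351), and 5' UTRs 14, at 136 per Mb (74.2 to 228), each in 0.10 Mb of such sequence. Intronic and intergenic peaks carried AGGTCA at 4.79% and 4.41%, a difference of 0.38 percentage points (-0.96 to 1.73, Fisher's exact adjusted p = 0.697).

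Among arms, 2L had 885 peaks in 5.90 Mb of such sequence (140.3 to 160.2 per Mb). X had 141 per Mb, 3L had 140.2, 3R had 107 and 2R had 99.9. Between the outermost pooled peaks of each arm, which leaves out much sequence near centromeres, the densities were 169 on 2L, 149.7 on X, 215 on 3L, 152 on 3R and 135 on 2R. The order of 3L and 2L, and that of X and 3R, therefore depended on that sequence.

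The peaks often came in pairs. There were 930 neighbouring summits 150 to 250 bp apart, and in 890 of them the stronger summit was that of lower coordinate. AGGTCA was in 5.27% of the lower-coordinate and 3.23% of the higher-coordinate summits of such pairs. Repeated sequence was rare, with a 31-base word found more than once in the genome in 0.465% of summit windows and 1.05% of flanks. Annotated transposable element starts counted as start sites, so the rule itself left out summits close to them.

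Some genes held many weaker distal peaks. A summit lay in the body of a protein-coding gene for 3617 peaks (73.2%), spread over 638 genes, and the 114 genes with at least 10 held 37.1% of all the peaks. kirre, which encodes an adhesion protein of muscle founder cells, held 70 in 182.2 kb of sequence open to the rule, of which 49 were found in both replicates. hth held 47, CG46467 and Glut4EF, which overlap each other, the same 41, and Fas3 37. klar, which acts in nuclear migration and lipid droplet transport, held 33, CG43759 and osp 32 each, and CG42663 29. fz2, a receptor for Wnt ligands, also held 29, with 27 found in both replicates, and cv-c and sano held 28 each.

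Per Mb open to the rule, these 12 genes ran from 384 peaks in kirre to 985 in CG42663. They were chosen for their many peaks, so these densities are given as a description only. The same gene bodies also held optimal summits, 18 in kirre, 12 in osp and 10 in fz2, but only 1 in sano.

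**Figure D4:**
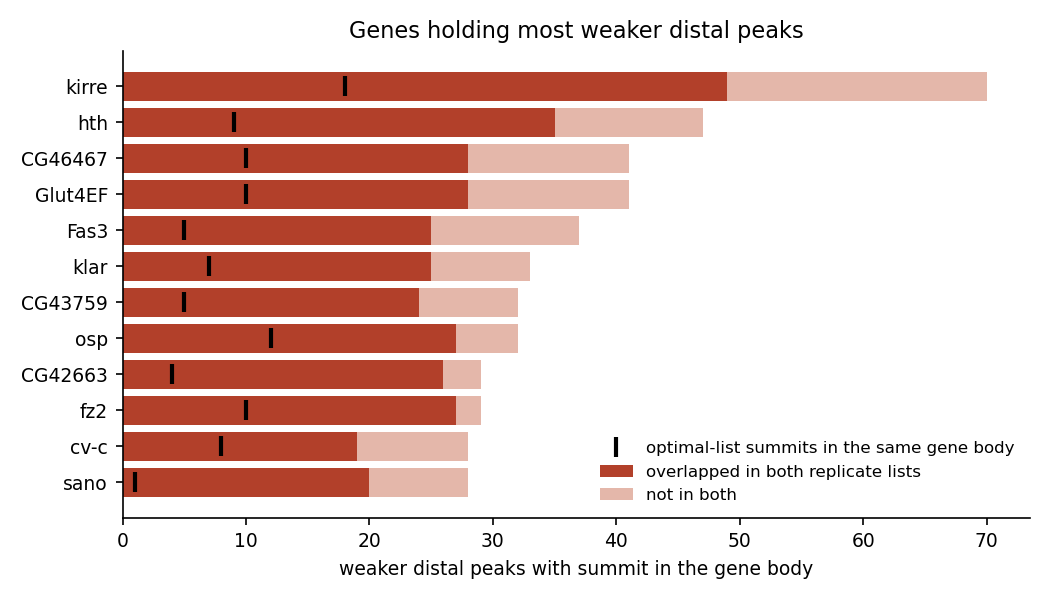
Number of weaker distal peaks with their summit in each gene body, for the 12 genes that hold most, split into those overlapped in both replicate lists (dark) and the others (light); black ticks give the optimal-list summits in the same body. Gene counts run from 70 in kirre to 28 in sano, and CG46467 and Glut4EF share the same 41 peaks.

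Weaker distal peaks were dense around regulators of development and sparse around genes of neuronal excitability. Each peak went to the protein-coding gene whose start site was nearest, and 10 of 16 gene lists had a density whose interval lay above the 125 per Mb of all genes, while 2 lay below. Over all protein-coding genes, 1135 of the 3770 with sequence that met the distance rules (eligible sequence) had a peak, or 30.1%. Genes can be in several lists, and the intervals treat peaks as independent although they cluster.

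Tracheal regulators had 536 peaks per Mb (437 to 649.9), with peaks at 10 of the 11 genes that had eligible sequence. vvl, a POU factor of the trachea and nervous system, led with 33 peaks, 20 of them found in both replicates, followed by bnl, the FGF ligand that guides tracheal branches, with 14, knrl with 13 and kni with 12. Regulators of endoderm, gut and fat body had 510.2 per Mb (418 to 617), of which hth gave 57 of 107 peaks. wg had 10, and fkh, the Fork head gene of the gut and salivary glands, had 8.

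Signalling genes had 502 per Mb (415 to 601), with 29 peaks at fz2, 12 at the receptor gene N, 11 at vn, an EGF-receptor ligand, and 10 at sty, an inhibitor of that pathway. Nuclear receptor genes had 459.8 per Mb (360.4 to 578) over 13 genes, of which 9 had a peak. Eip75B, an ecdysone-induced receptor that binds haem, had 18 peaks, and knrl and kni, of the Knirps family, had 13 and 12. EcR, the ecdysone receptor gene, had 8 peaks, and so did ftz-f1, a competence factor for the ecdysone response.

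Ecdysone response genes had 325 per Mb (255 to 409), with peaks at 12 of 14 genes, of which Eip75B, EcR, Eip63E and ftz-f1 led. Segmentation genes had 356 (283 to 442), led by ems and kni with 12 peaks each, en with 11 and wg with 10. Mesoderm and muscle regulators had 332 (241 to 446), led by mid with 9, and neural transcription factors had 307 (246 to 378), led by vvl with 33 and Lim1 with 18. Axon guidance and synaptic adhesion genes had 243 (211 to 278), led by kirre with 32, Ten-m with 16 and beat-IIIc with 15. Of genes with eligible sequence, 13 of 20 segmentation genes and 9 of 16 mesoderm and muscle regulators had a peak. So did 10 of 25 neural transcription factors and 28 of 47 axon guidance and synaptic adhesion genes. Glycolysis genes, with 6 peaks in 0.012 Mb at Ald1 and Tpi, made the tenth list above the background. By gene body they had 0 peaks in 0.001 Mb, and 9 lists were above.

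Ion channel and transmitter receptor genes had 27.5 peaks per Mb (14.7 to 47.1) in 0.472 Mb of eligible sequence, with 13 peaks at 4 of 31 genes, 7 of them at dnc, a cAMP phosphodiesterase gene. Ribosomal protein genes had 2 peaks in 0.123 Mb, or 16.3 per Mb (1.97 to 58.7), but only 0.002 Mb of that sequence lay between the outermost pooled peaks. Hox genes, at 170.0 per Mb (111 to 249), were not apart from all genes, with 11 peaks at Antp and 7 at Ubx. Odorant and gustatory receptor genes, with 5 peaks in 0.067 Mb (24.4 to 175 per Mb), cuticle protein genes, at 125 (34.2 to 321), and lipid metabolism genes, at 157 (19.0 to 568), were not apart either.

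**Figure D5:**
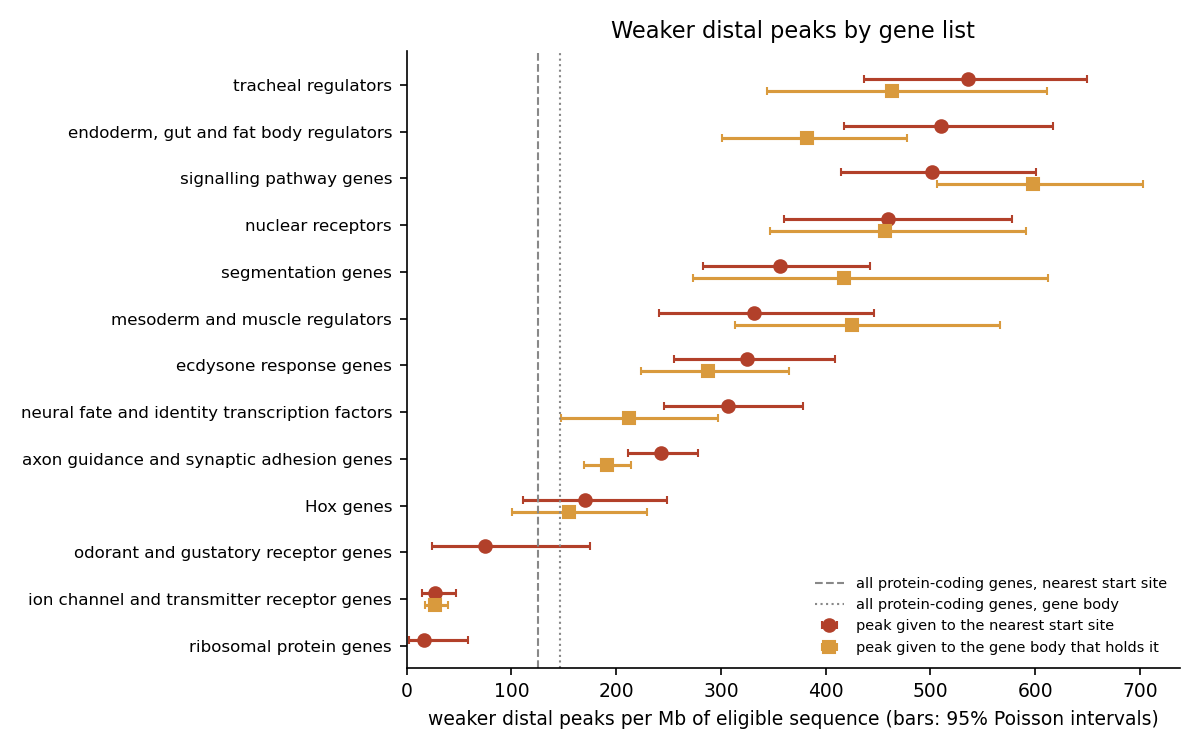
Weaker distal peaks per Mb of sequence that met the distance rules, by gene list, with 95% Poisson intervals, for peaks given to the nearest start site (circles) or to the gene body that holds them (squares); lists with under 0.05 Mb are not drawn. Dashed and dotted lines mark all protein-coding genes, at 125 and 146 per Mb; tracheal regulators stand at 536 and ion channel genes at 27.5 by nearest start.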

How the data were processed

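Chromatin of 2 replicates of Hr78-GFP embryos was analysed as 1 group. Peaks were called on each replicate with a control, on both together, and reduced to an optimal list by irreproducible discovery rate (IDR), per a README text deposited by the authors. The sources used here do not give the caller, aligner or IDR threshold. The authors deposited a peak signal, which is on a different scale in each list, and lists were therefore compared by rank. The authors deposited q-values as −log10 q, with the summit as an offset from the region's start.

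The dm6 coordinates were set on genome release 6 with Ensembl release 115 (BDGP6.54); start sites include annotated transposable elements. Motifs were searched on both strands, 50 bp either side of the summit and of a point 500 bp higher, with exact McNemar tests over peaks, and Fisher's exact tests between sets; p-values were adjusted by Benjamini-Hochberg within each family, with a threshold of 0.05. Intervals are 95% Clopper-Pearson for shares, Poisson for densities and Wald for differences. Read depth is unknown, so intervals cover counting only.

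Peaks are named by the nearest protein-coding start site or the gene body. Named are the 12 members of highest signal, the 12 ranking best in both replicates, the 12 genes with most peaks, up to 10 DR1 and 10 AGGTCA peaks by signal (no sequence is shown from arm 2R), up to 4 genes per list, and those at each threshold; other genes were chosen after their values were seen, and some that the rule named are not described. The members, lists and motifs were chosen with earlier results of these data known. Of 422 list symbols, 418 matched. Python 3.11.15, scipy 1.17.1, numpy 2.4.6, pandas 2.3.3 and matplotlib 3.10.9 were used, and the tests were checked on simulated sequences.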

Additional observations from a re-analysis of the deposited data

How the results depend on the processing

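The excess of AGGTCA at the summits kept its direction and passed in all 15 alternatives, at 1.62 to 5.38 percentage points, as did that of any hexamer form (4.96 to 13.03) and of DR1 (0.26 to 0.81, largest exact p 0.0312). The shortfall against optimal distal peaks held in all 13, at -7.85 to -4.50. Where a replicate was left out, the first 5723 places of the other list stood in for the optimal list. The lower share of repeated sequence held in the 8 alternatives run, at -0.77 to -0.30. The count of hexamers was less steady, and the cause was not tested. Against 54 more and 54 less frequent, there were 166 and 140 with start sites over 2000 bp away, 3 and 0 over 10000 bp, 96 and 84 with protein-coding start sites only, 30 and 32 in the 2471 stronger peaks, and 19 and 16 over 5000 bp from optimal regions. A flank 1000 bp higher gave 33 more frequent, and one 500 bp lower gave 32 less frequent. The single replicate lists gave 30 to 53 more and 34 to 53 less frequent, the lower counts without replicate 3. Consensus motifs called were 3, not 7, in the 2471 stronger peaks and over 10000 bp, 4 over 5000 bp from optimal regions, and 4 to 6 in the replicate lists, 4 without replicate 3. Support in both replicates was 74.4% without the second summit of close pairs, 97.0% in the 2471 stronger peaks, 76.4% over 10000 bp, 75.7% over 5000 bp from optimal regions, 49.5% with summits within 100 bp and 64.7% with 50% reciprocal overlap. Introns held 69.5% at 2000 bp, 74.5% at 10000 bp and 65.1% with protein-coding start sites. Lists above all genes were 9, not 10, by gene body, where the glycolysis genes lost their call. Lists below all genes were 1, not 2, both by gene body and within the outermost pooled peaks, where introns held 211 and intergenic sequence 133 peaks per Mb. Start sites without transposable elements, which leave 5563 peaks, the consensus counts, the results for repeated sequence and for single motifs and the setting within the outermost pooled peaks were added after seeing the data. No paired analysis was possible because there was 1 group. Unknown depth limits all of these values.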
